A study of Mus musculus with 6 samples.

Results

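The 60 genes described here encode the protein factors that start and extend translation, together with relatives that share their symbols. They were taken by name: symbols beginning with Eif1 to Eif6 or with Eef1 or Eef2, without the eIF2 kinases (Eif2ak) and pseudogenes, and with at least 60 counts in total. Of 16840 genes in the deposited count table, 68 matched the name pattern. Taking out 4 kinases, 2 pseudogenes and 2 genes with too few counts left 60. The genes nearest the count limit were Eif4ebp3, left out with 53 counts over the 6 libraries, and Eef1a2, kept with 186. Another 4 members carry older symbols of the Argonaute genes (Eif2c1 to Eif2c4, now Ago1 to Ago4), which act in small-RNA silencing, and they are counted apart below.

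The cells were wild-type (WT) alveolar macrophages of the mouse, which live in the lung's air spaces, taken at day 2. RNA-seq was done on 6 libraries in 3 groups of 2: no GM-CSF, GM-CSF alone, or GM-CSF plus DON, a treatment named by that abbreviation alone. The cytokine GM-CSF (granulocyte-macrophage colony-stimulating factor) is needed for the development of these macrophages. The labels call the cells a line, AM, and leave unsaid both its origin and whether a group's replicates came from different cultures or mice, so the p-values cover no more than the spread among these libraries.

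Translation initiation begins when eIF2 carries the initiator tRNA to the small ribosomal subunit, where eIF1, eIF1A and eIF3 hold it open for scanning. The eIF4F complex, made of the cap-binding protein eIF4E, the scaffold eIF4G and the helicase eIF4A, brings the mRNA. The 4E-BP proteins, of which Eif4ebp1 encodes the best known, block eIF4E until the kinase mTORC1 phosphorylates them. Phosphorylation of eIF2 makes it a trap for its exchange factor eIF2B, which lowers initiation while raising translation of the transcription factor ATF4. Elongation is carried by eEF1A, which delivers aminoacyl-tRNA, its exchange complex eEF1B, and eEF2, which moves the ribosome along. All of these steps are regulated largely after transcription, and the values below are RNA levels only.

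Promoter letters were looked up in RefSeq windows (GRCm38.p6) that ran from 250 bases before to 50 bases after a gene's start. Of the 60 members 48 had such a window; Eif4ebp1 had none. The E-box letters CACGTG, which MYC and the TFEB family of factors can bind and which read the same on both strands, lay in the windows of 12 of these 48 members (25.0%). Over all genes with a window the share was 8.09%, and over the 8540 that were also tested for expression it was 12.1%. The 7 windows below are shown because they span members that fell with DON (the first 5) and members that rose (the last 2). Each is 30 bases, 5′ to 3′ on the gene's own strand, with the E-box in capitals.
Eif4e, chr3:138527192-138527221 (+): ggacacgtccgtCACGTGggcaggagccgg
Eif4g1, chr16:20672661-20672690 (+): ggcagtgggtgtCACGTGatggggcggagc
Eif4a1, chr11:69672595-69672624 (-): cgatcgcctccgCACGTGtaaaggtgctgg
Eif4h, chr5:134639488-134639517 (-): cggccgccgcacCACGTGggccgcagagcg
Eif5a, chr11:69921443-69921472 (-): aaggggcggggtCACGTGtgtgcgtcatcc
Eef2, chr10:81176576-81176605 (+): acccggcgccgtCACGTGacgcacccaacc
Eif3f, chr7:108934335-108934364 (+): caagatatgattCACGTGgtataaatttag

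The capitals began 64 bases before the start in Eif4e, 54 in Eif4g1, 189 in Eif4a1, 96 in Eif4h, 74 in Eif5a, 43 in Eef2 and 68 in Eif3f. A match is a description of the letters and no evidence of binding. Of the 12 members with the letters, 4 rose and 6 fell with DON at an adjusted p under 0.05 in edgeR's quasi-likelihood test, where 57.6% of all genes tested changed (28.8% in each direction). Of the 36 without them, 7 rose and 15 fell, among the latter Eef1a2, which is only described below. The members with an E-box therefore moved in both directions.

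A C followed by at least 4 pyrimidines near the start resembles the 5′ terminal oligopyrimidine tract, known for placing mRNAs of the translation machinery under mTORC1. It was found within 5 bases of a start, on the sense strand, in 12 of the 48 members (25.0%), against 21.2% of all genes and 23.7% of tested genes with a window. The 3 windows below are shown because they span a member that fell with GM-CSF (Eef1a1), a member that rose with DON (Eif3f) and a member that fell with DON (Eif2s3x). The matched letters are in capitals. They describe the sequence near an annotated start and are no evidence that transcripts begin there.
Eef1a1, chr9:78481710-78481739 (-): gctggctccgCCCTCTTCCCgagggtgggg
Eif3f, chr7:108934400-108934429 (+): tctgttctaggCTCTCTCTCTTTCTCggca
Eif2s3x, chrX:94212637-94212666 (-): ctgccgagcattttCCTTTTCTCTCCgagc

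The composite element TGATGNAAN, of the kind that ATF4 and a CEBP partner can bind, was searched on both strands. It occurred in the windows of 2 members, Eef2k and Eif2s3x (4.17%), against 4.5% of all genes and 2.86% of tested genes with a window.

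Library totals ran from 28321986 to 35196387 counts, and 14892 to 15188 genes had a count in each. Expression is given as CPM, a gene's counts relative to the scaled library total, and levels of different genes are compared only in the authors' FPKM, which is per transcript length. Of 16 macrophage marker symbols, which include older and newer names of the same genes, 13 were in the table. No listed marker was missing under all its names. Their summed level was 47324 to 48129 CPM without GM-CSF, 30338 to 30410 with it and 35104 to 36688 with DON. The sum is mostly Lyz2, at 36619.8 and 36570.4 CPM without GM-CSF, 17101 and 17052 with it, and 19670 and 18157 with DON. Single markers went both ways, more of them down than up. Lyz2, Cd68, Emr1, Siglec5, Marco, Fabp4, Pparg, Csf1r and Krt79 were lower in both GM-CSF libraries than in both without it. Chi3l3, Mrc1 and Car4 were higher, Car4 from 0.215 and 0.238 to 661 and 652 CPM, and Itgax overlapped. Markers of granulocytes, of which 2 of 8 were found, summed to 23.7 to 24.5 CPM without GM-CSF, 7.39 to 8.48 with it and 4.09 to 4.83 with DON. Summed markers of lung epithelium (7 of 7 found) and of stroma or endothelium (6 of 6) stayed at or under 5.32 and 3.19 CPM, with Sftpc and Col1a1 at or near 0. The part of these markers in the results below was not tested, and in bulk RNA fewer cells of a type cannot be told apart from less RNA per cell.

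The members differed widely in level. The elongation factor gene Eef1a1 stood at a mean of 4364 FPKM over the 6 libraries, rank 16 of all genes in the table. Eef2 followed at 801, the hypusine-carrying factor Eif5a at 768, the helicase Eif4a1 at 669 and the start-codon factor Eif1 at 426. Eif4ebp1 was 23rd among the members at 85.4 FPKM. At the low end stood Eif5a2 at 1.94 and Eef1a2 at 0.548 FPKM, both known as tissue-restricted copies of abundant factors. The members' summed share of the counts was 1.72 and 1.75% in the libraries lacking GM-CSF, 1.90 and 1.89% in those with it, and 1.85% in both DON libraries. Eef1a1 alone held 0.575 to 0.668%, and without it the share was 1.07 and 1.08%, then 1.29% in both GM-CSF libraries, then 1.25 and 1.27%.

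All 60 members passed the low-count filter and were tested. Eef1a2 met both the count limit and the filter only through the GM-CSF libraries, so its counts there are a description. Counts of members hold it unless they are said to leave it out. With GM-CSF, 32 rose and 9 fell in the same test, where 56.8% of the 12340 genes tested changed (27.5% higher, 29.3% lower). Their median log2 fold change was 0.18, against -0.02 over all genes. By total counts alone, 42 members rose and 8 fell, while over all genes 4587 rose and 2689 fell in place of 3393 and 3621. Without Eef1a2, 31 of 59 rose and 9 fell. Without the Argonautes, but with Eef1a2 kept among those that rose, 32 of 56 rose and 6 fell. With DON added to GM-CSF, 14 rose and 25 fell (14 and 24 without Eef1a2), where 57.6% of all genes changed (28.8% in each direction). The median was then -0.10, or -0.07 without Eef1a2, against 0.01 over all genes.

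In the DON libraries, set against those lacking GM-CSF, 20 members were higher and 23 were lower, where 55.6% of all genes changed (27.2% higher, 28.4% lower). These comparisons share libraries: the GM-CSF libraries enter the first and the second with opposite sign. A high value there raises one difference and lowers the other, so values are given side by side. The split of the third comparison depended on scaling: by total counts alone 26 members were higher and 15 lower, while the median of all genes moved to 0.11.

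Most changes were small. Of the 59 members other than Eef1a2, none was called with a change of at least 2-fold with GM-CSF or with DON in edgeR, where 11.7% and 9.37% of all genes were. Against no GM-CSF, the cells with GM-CSF and DON had 3 such members (5.08%, against 11.6% of all genes): Eif4ebp1, Eif4g3 and Eif5a2. At 1.5-fold the members numbered 8 with GM-CSF (13.6%, against 22.9% of all genes) and 10 with DON (16.9% against 22.3%).

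**Figure D1:**
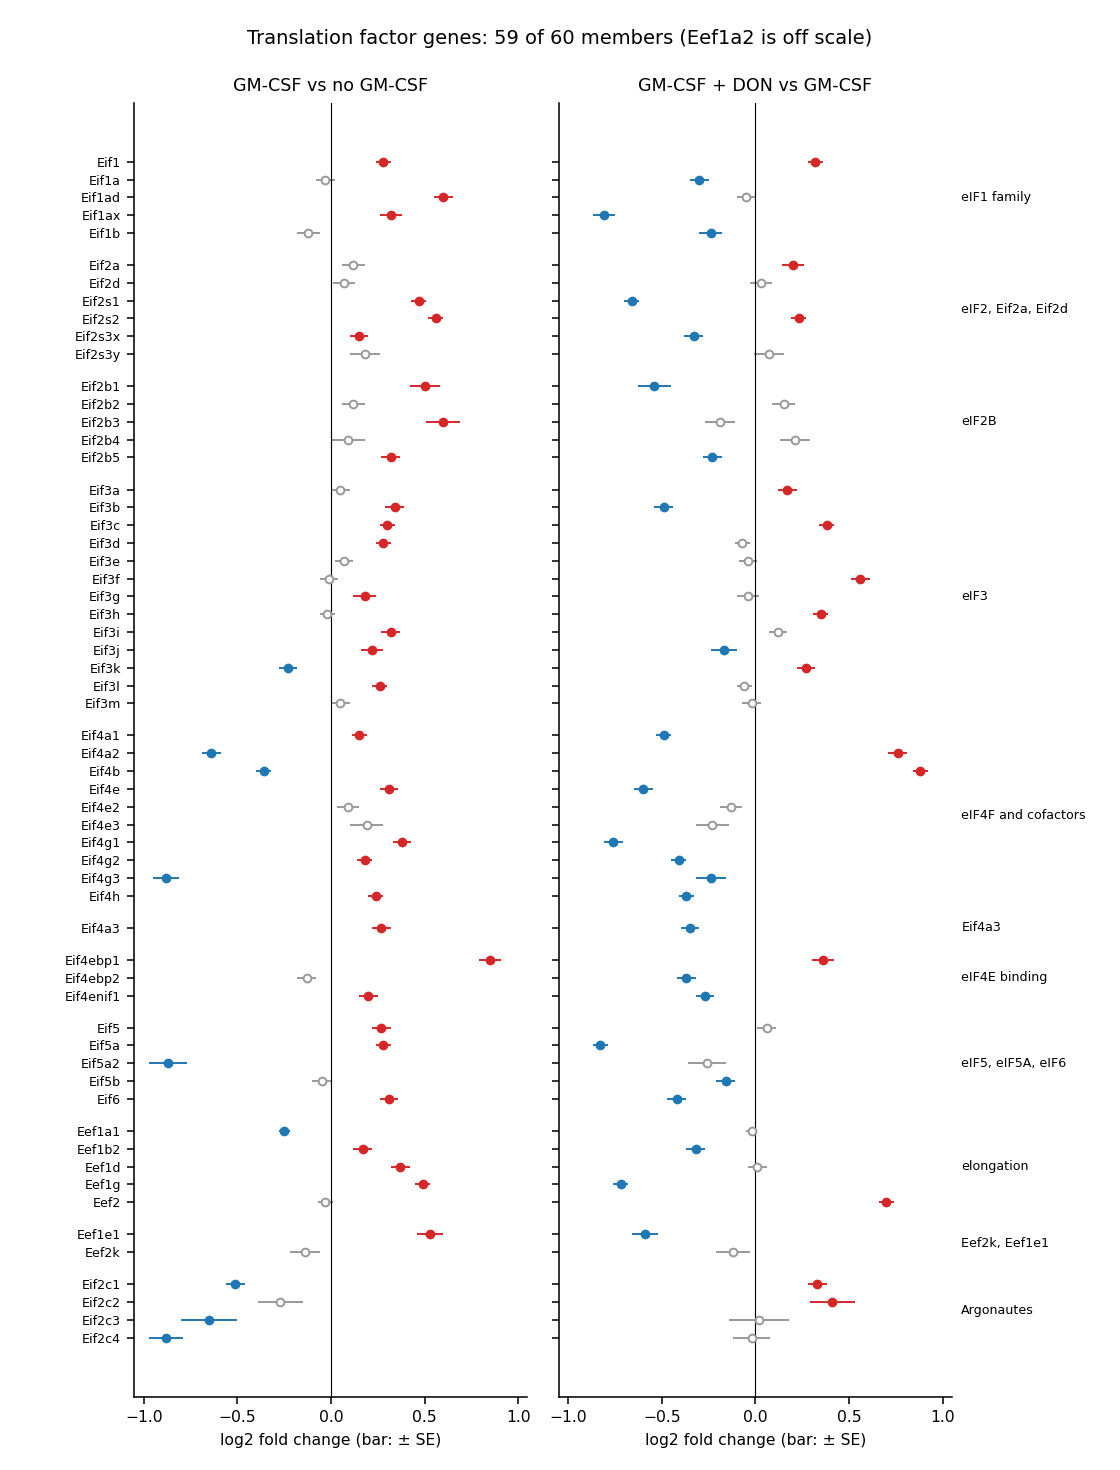
Log2 fold change (x axis, bars ± SE) of 59 members, ordered by role from top to bottom, for the effect of GM-CSF on the left and for DON added to GM-CSF on the right. Red points were called higher, blue lower, and open grey points did not pass. Eef1a2, of few counts, is off the scale. Both panels share the 2 GM-CSF libraries.

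Eif4ebp1, whose product holds eIF4E away from the mRNA cap scaffold, rose at both steps. It was at 38.7 and 40.8 CPM without GM-CSF, 69.0 and 74.5 once it was added, and 93.4 and 91.1 with DON. The 3 groups did not overlap. The log2 fold change was 0.85 ± 0.06 with GM-CSF (adjusted p = 9.08e-07 in edgeR), a 1.80-fold rise. With DON it rose by a further 0.36 ± 0.06 (adjusted p = 0.000295), and the difference between the outer groups was 1.21 ± 0.06 (adjusted p = 6.93e-08). That was the largest called rise of any member between the group with DON and the group without GM-CSF.

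Eif4ebp2, the second 4E-BP gene, ran the other way. Its libraries were at 80.0 and 76.1 CPM without GM-CSF, 70.6 and 72.2 with it, and 54.0 and 56.5 with DON. The groups did not overlap, but the step with GM-CSF, -0.13 ± 0.05, did not pass (adjusted p = 0.0542 in edgeR). It lies near the threshold: with upper quartile scaling it passed at -0.16 (adjusted p = 0.0209). Without the second library lacking GM-CSF it was also -0.16. The step with DON, -0.37 ± 0.05, passed (adjusted p = 0.00019). On the authors' FPKM, which is per length, Eif4ebp1 stood at 0.97 and 1.07 times Eif4ebp2 without GM-CSF, 1.96 and 2.07 times with it, and 3.47 and 3.24 times with DON. The third gene, Eif4ebp3, had between 4 and 13 counts in every library and is no member. Eif4enif1, which encodes the eIF4E transporter, rose with GM-CSF (0.20 ± 0.05) and fell with DON (-0.27 ± 0.05). The former call was lost without the second library lacking GM-CSF (adjusted p = 0.0594 in edgeR).

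Over the 6 libraries, the genes whose log2 CPM followed Eif4ebp1 most closely, among 8163 with a mean of at least 10 CPM, were Pck2 (Pearson's r 0.9995), Tspan5 (0.9988), Clec1b (0.9981), Mdfic (0.998) and Hspa5 (0.9978). The 6 points share the same 3 groups, so the values describe a common order of the group means. Pck2, the mitochondrial phosphoenolpyruvate carboxykinase, was at 21.5 and 23.7 CPM without GM-CSF, 47.5 and 50.3 with it, and 68.4 and 66.7 with DON.

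Of the 10 genes of eIF4F and its helicase cofactors, 5 rose and 3 fell with GM-CSF, and 2 rose and 6 fell with DON. In each step 80% were called, against 56.8% and 57.6% of all genes. Those that fell with DON included the core subunits. Eif4e, the cap-binding protein itself, was at 92.8 and 96.9 CPM without GM-CSF, 119 and 116 with it, and 80.6 and 74.4 with DON. The groups did not overlap, with GM-CSF alone highest. The log2 fold change was 0.31 ± 0.05 with GM-CSF and -0.60 ± 0.05 with DON (adjusted p = 0.000687 and 9.04e-06 in edgeR). For its relatives no step passed: Eif4e2 was at 0.09 ± 0.06 and -0.13 ± 0.06 and Eif4e3 at 0.19 ± 0.09 and -0.23 ± 0.09. These lie near the threshold. By total counts alone Eif4e2 passed with GM-CSF at 0.21 (adjusted p = 0.0136), and without the second library lacking GM-CSF at 0.17 (adjusted p = 0.0366), and Eif4e3 passed by total counts at 0.31 (adjusted p = 0.0117). With DON, Eif4e3 passed without the first DON library (-0.33, adjusted p = 0.0233), and Eif4e2 without either library lacking GM-CSF (-0.13 in both, adjusted p = 0.0455 and 0.0459). Their libraries were between 69.8 and 79.1 CPM for Eif4e2 and between 10.7 and 13.4 CPM for Eif4e3.

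Eif4g1, the main scaffold gene, was at 432 and 389 CPM without GM-CSF, 533 in both libraries with it, and 317 and 312 with DON. Again GM-CSF alone was highest and the groups did not overlap. The log2 fold change was 0.38 ± 0.05 with GM-CSF and -0.76 ± 0.05 with DON, a 1.70-fold fall (adjusted p = 1.18e-06 in edgeR). Eif4g2, a scaffold relative that lacks the eIF4E site, moved alike but less. It was at 1077 and 1103 CPM, 1226 and 1237, and 909.9 and 947, with log2 fold changes of 0.18 ± 0.04 and -0.41 ± 0.04.

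Eif4g3, the other full-length scaffold gene, behaved differently from both. Its libraries were at 112 and 96.2 CPM without GM-CSF, 58.1 and 54.7 with it, and 45.9 and 49.5 with DON. It fell with GM-CSF by 0.88 ± 0.07 on the log2 scale (adjusted p = 4.77e-06 in edgeR), and by 0.24 ± 0.08 with DON (adjusted p = 0.0221). That second call was lost without the first GM-CSF library (adjusted p = 0.139) and without the first DON library (adjusted p = 0.146). Per length, in FPKM, Eif4g1 stood at 4.66 and 4.99 times Eif4g3 without GM-CSF, 11.1 and 11.2 times with it, and 8.37 and 7.96 times with DON.

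The helicase genes moved in opposite directions. Eif4a1, the abundant form, was at 1061 and 1124 CPM without GM-CSF, 1201 and 1218 with it, and 864 and 862 with DON. It rose by 0.15 ± 0.04 with GM-CSF, a call lost without the first library lacking GM-CSF (0.11, adjusted p = 0.10). With DON the log2 fold change was -0.49 ± 0.04 (adjusted p = 3.97e-06 in edgeR). Eif4a2, its close relative, was at 113 and 114 CPM, 75.1 and 70.0, and 124 and 122, so that GM-CSF alone was lowest. Its log2 fold changes were -0.64 ± 0.05 and 0.76 ± 0.05 (adjusted p = 2.49e-06 and 1.09e-06). Per length, Eif4a1 stood at 10.3 and 11.1 times Eif4a2 in FPKM without GM-CSF, 17.3 and 18.7 times with it, and 7.59 and 7.74 times with DON.

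Reads of Eif4a1 are uncertain in their assignment. The processed pseudogene Eif4a-ps4 (chr1:60703932-60705149, GRCm38) was given 79930 counts by the authors, and 95.7% of its 50-base stretches also occur in Eif4a1. When the counts of both genes were added, an alternative chosen after seeing the data, Eif4a1 kept its calls in both steps. The calls of the members were the same in number. The ratios to Eif4a2 given above use Eif4a1 without the pseudogene and were not repeated. Eif4a3 encodes a subunit of the exon junction complex and not of eIF4F. It was at 90.3 and 92.5 CPM, 112 and 109, and 90.8 and 83.2 (0.27 ± 0.05 and -0.35 ± 0.05).

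The helicase cofactors also split. Eif4b, which stimulates eIF4A and is a target of the kinase S6K, was at 335 and 323 CPM without GM-CSF, 257 in both libraries with it, and 469 and 479 with DON. GM-CSF alone was lowest and the groups did not overlap. Its rise with DON, 0.88 ± 0.04 on the log2 scale or 1.84-fold (adjusted p = 1.24e-07 in edgeR), was the largest of any member in that comparison, and it fell by 0.36 ± 0.04 with GM-CSF. Eif4h, a smaller cofactor, showed 0.24 ± 0.04 with GM-CSF and -0.37 ± 0.04 with DON.

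**Figure D2:**
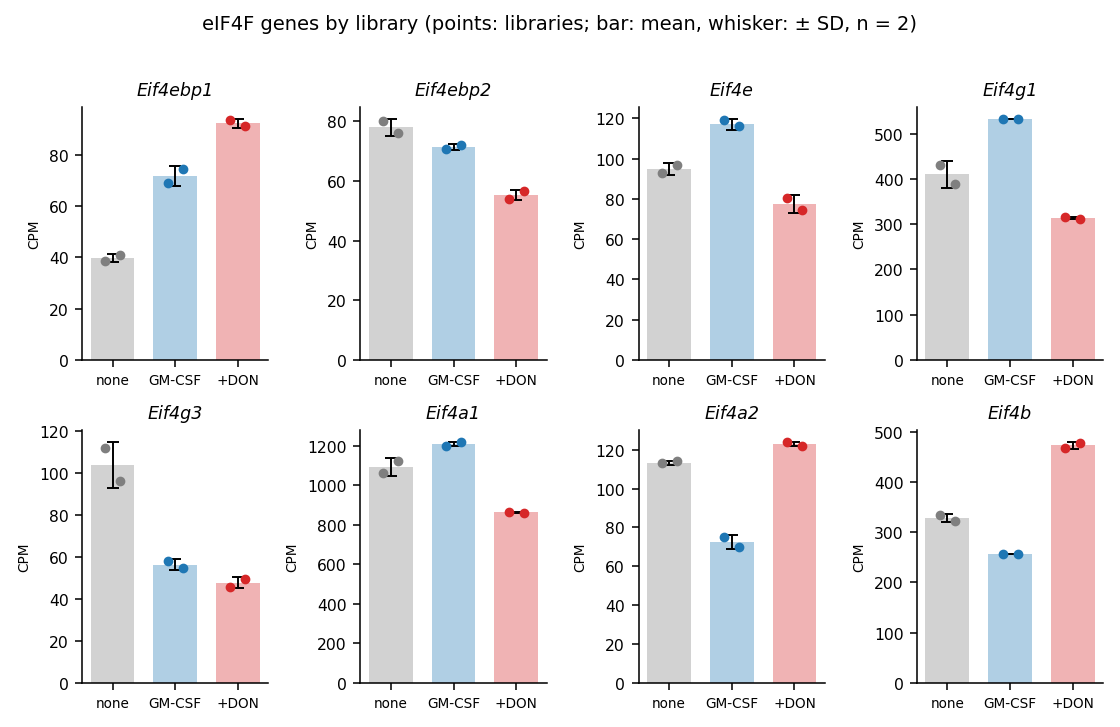
CPM (y axis, from 0) of 8 genes of eIF4F and the 4E-BPs in each library (none: no agent, GM-CSF: that agent alone, +DON: both agents). Points are libraries, bars means and whiskers ± SD (n = 2). Eif4e, Eif4g1 and Eif4a1 are highest with GM-CSF alone, Eif4a2 and Eif4b lowest there, while Eif4ebp1 rises and Eif4ebp2 and Eif4g3 are lower from left to right.

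Among the 5 genes of the eIF1 family, which keep scanning accurate, 3 rose and none fell with GM-CSF, and 1 rose and 3 fell with DON. The shares called were 60% and 80%, the first near the 56.8% of all genes. Eif1 was at 264 and 279 CPM without GM-CSF, 335 and 326 with it, and 421 and 406 with DON. It rose at both steps, by 0.28 ± 0.04 and 0.32 ± 0.04. Eif1b, its near copy, was at 42.6 and 41.1, 40.1 and 36.5, and 32.3 and 32.5 CPM. It did not pass with GM-CSF (-0.12 ± 0.06). It fell with DON by 0.24 ± 0.06, a call lost without the first GM-CSF library (adjusted p = 0.0702 in edgeR).

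The eIF1A genes differed too. Eif1ax was at 48.8 and 51.7 CPM without GM-CSF, 63.9 and 61.6 with it, and 37.7 and 34.0 with DON, with log2 fold changes of 0.32 ± 0.06 and -0.81 ± 0.06 (adjusted p = 0.00141 and 3.78e-06 in edgeR). Eif1a, of nearly the same function, did not change with GM-CSF beyond the spread (-0.03 ± 0.05) and fell by 0.30 ± 0.05 with DON. It was at 155 and 164, 160.2 and 152, and 129 and 125 CPM. Eif1ad, named for an eIF1A domain, rose with GM-CSF from 35.9 and 37.9 to 55.4 and 56.1 CPM (0.60 ± 0.05) and was at 55.2 and 52.7 CPM with DON (-0.05 ± 0.05, not passed).

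The subunits of eIF2 did not move as a set. Eif2s1 encodes the alpha subunit, which carries the regulatory phosphorylation site. It was at 91.7 and 91.2 CPM without GM-CSF, 127 in both libraries with it, and 79.1 and 81.2 with DON. It rose by 0.47 ± 0.04 and then showed a log2 fold change of -0.66 ± 0.04 with DON (adjusted p = 1e-05 and 1.39e-06 in edgeR). Eif2s2, the beta subunit, was at 106 and 111, 161 and 159, and 189 and 186 CPM, rising at both steps by 0.56 ± 0.04 and 0.23 ± 0.04. With DON the alpha and beta subunit genes thus changed in opposite directions, while both had risen with GM-CSF. Of the 50-base stretches of Eif2s2 27.8% also occur in another gene, so its level carries uncertain reads.

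The gamma subunit has an X-linked and a Y-linked gene. Eif2s3x was at 184 and 191 CPM, 212 and 202, and 168 and 163. Its rise with GM-CSF, 0.15 ± 0.05, was lost without the first library lacking GM-CSF (adjusted p = 0.104 in edgeR) and without the first GM-CSF library (adjusted p = 0.136). With DON it fell by 0.33 ± 0.05. Eif2s3y was at 25.4 and 25.5, 30.4 and 27.3, and 32.1 and 28.5 CPM, and passed in neither step (0.18 ± 0.08 and 0.07 ± 0.08). With GM-CSF it passed by total counts alone (0.30, adjusted p = 0.00606 in edgeR) and with only the 2 groups compared (0.20, adjusted p = 0.0391). Without the second GM-CSF library that step was 0.26. Eif2a and Eif2d, which can deliver initiator tRNA without eIF2, did not pass with GM-CSF. Eif2a rose by 0.20 ± 0.06 with DON, a call lost without the second GM-CSF or the second DON library (adjusted p up to 0.118 in edgeR).

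Of the 5 subunits of eIF2B, the exchange factor that reloads eIF2 with GTP, 3 rose with GM-CSF and none fell, and with DON none rose and 2 fell. The 60% called with GM-CSF is near the 56.8% of all genes, and the 40% with DON is below 57.6%. Eif2b1 was at 22.2 and 26.0 CPM without GM-CSF, 33.4 and 34.8 with it, and 24.6 and 22.2 with DON (0.50 ± 0.08 and -0.54 ± 0.09). Eif2b3 was at 11.4 and 10.9, 17.1 and 16.7, and 13.8 and 15.6 CPM. Its log2 fold change was 0.60 ± 0.09 with GM-CSF and -0.19 ± 0.08, not passed, with DON (-0.28 without the second DON library). The catalytic subunit gene Eif2b5 showed 0.32 ± 0.05 and -0.23 ± 0.05.

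The 13 genes of eIF3, the largest initiation factor and the platform between the small subunit and eIF4G, changed modestly with GM-CSF. There were 7 that rose, by 0.18 to 0.34 on the log2 scale, and 1, Eif3k, that fell (-0.23 ± 0.05), a call lost by total counts alone (adjusted p = 0.11 in edgeR). The rises of Eif3g and Eif3j were lost without the first library lacking GM-CSF, without the first GM-CSF library and, for Eif3g, without the second GM-CSF library (adjusted p up to 0.0905 for Eif3g and 0.164 for Eif3j). With DON 5 rose and 2 fell, and the 53.8% called is near the 57.6% of all genes, as is the 61.5% with GM-CSF near 56.8%. The fall of Eif3j with DON (-0.17 ± 0.07, adjusted p = 0.0484) was lost in 6 of 14 alternatives, among them those without the first GM-CSF or either DON library, and ranged from -0.25 to -0.09. Eif3f was at 206 and 203 CPM without GM-CSF, 211 and 197 with it, and 307 and 295 with DON. The first 2 groups overlapped (-0.01 ± 0.05), and DON stood apart by 0.56 ± 0.05 (adjusted p = 5.19e-06 in edgeR). Eif3h, which pairs with Eif3f in the complex, rose by 0.35 ± 0.04 with DON.

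Eif3c, part of the scaffold core, was at 278 and 272 CPM, 337 and 340.2, and 440.3 and 442, rising at both steps (0.30 ± 0.04 and 0.38 ± 0.04). Eif3b, a core subunit that binds RNA, went up with GM-CSF (0.34 ± 0.05) and down with DON (-0.49 ± 0.05). Eif3a, its core partner, rose by 0.17 ± 0.05 with DON, a call lost without the second GM-CSF or the second DON library (adjusted p up to 0.0656 in edgeR). Eif3e and Eif3m passed in none of the 3 comparisons. Per length, the subunit genes ran in the GM-CSF libraries from a mean of 12.3 FPKM for the loosely bound subunit Eif3j to 191 for Eif3k, with a median of 102. Of the 50-base stretches of Eif3j 54.8% also occur in other genes, mainly its copy Eif3j2, so its level is uncertain.

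**Figure D3:**
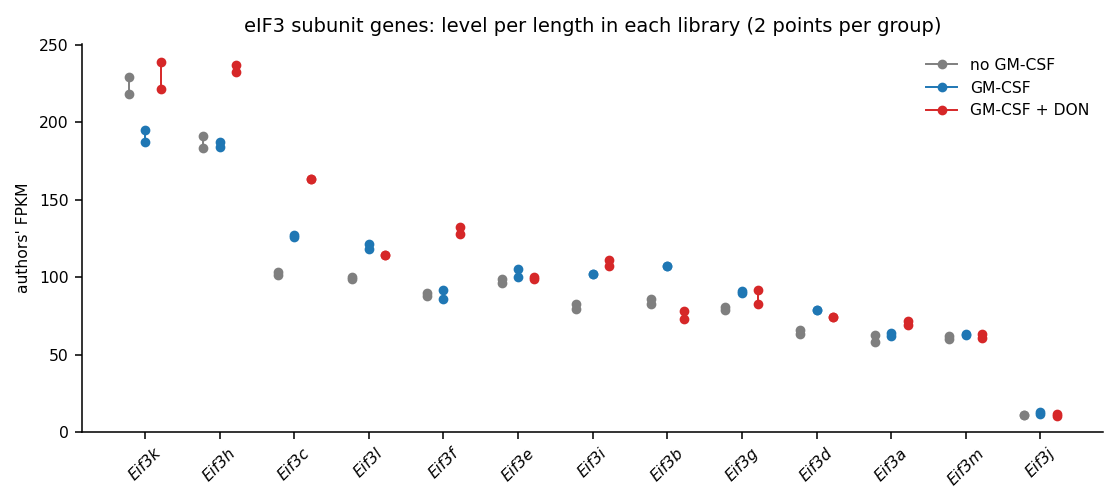
Authors' FPKM (y axis) of the 13 eIF3 subunit genes, ordered by mean level, with 2 points (libraries) per group: grey for none, blue for GM-CSF, red for DON added to it. Eif3c, Eif3f and Eif3h are highest with DON, Eif3b with GM-CSF alone, and Eif3j is the lowest throughout.

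The factors of subunit joining and eIF5A included the largest fall with DON among members of at least 10 CPM. Eif5a, which helps ribosomes past difficult stretches and is the carrier of the hypusine residue, was at 869.8 and 889 CPM without GM-CSF, 1079 and 1064 with it, and 621 and 581 with DON. GM-CSF alone was highest and no groups overlapped. The log2 fold changes were 0.28 ± 0.04 and -0.83 ± 0.04, the latter a 1.78-fold fall (adjusted p = 0.000211 and 2.23e-07 in edgeR).

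Eif5a2, its rarer paralog, was at 13.8 and 14, 7.34 and 7.92, and 6.68 and 6.05 CPM. It fell with GM-CSF by 0.87 ± 0.10 (adjusted p = 3.01e-05 in edgeR), and the step with DON, -0.26 ± 0.10, did not pass (adjusted p = 0.0539). That step lies near the threshold and passed with RLE scaling (-0.27, adjusted p = 0.0454) and by total counts alone (-0.28, adjusted p = 0.0392). Eif5, the GTPase activator of eIF2, rose with GM-CSF (0.27 ± 0.05) and did not pass with DON (0.06 ± 0.05). Eif6, which keeps free large subunits from joining, showed 0.31 ± 0.05 and -0.42 ± 0.05. Eif5b, the joining GTPase, fell by 0.16 ± 0.05 with DON, a call lost without the first GM-CSF library, without the second DON library and with upper quartile scaling (adjusted p up to 0.16 in edgeR).

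Of the 5 elongation factor genes other than Eef1a2, 3 rose and 1 fell with GM-CSF (80% called, against 56.8% of all genes), and 1 rose and 2 fell with DON (60% against 57.6%). Eef2, which drives translocation, was at 1994 and 1923 CPM without GM-CSF, 1914 and 1921 with it, and 3078 and 3167 with DON. It did not pass with GM-CSF: the difference was -0.03 ± 0.04, and 0.09 (adjusted p = 0.0456) by total counts alone. Both DON libraries were far above the other 4, and the rise was 0.70 ± 0.04 on the log2 scale or 1.63-fold (adjusted p = 2.36e-07 in edgeR). Its inhibitory kinase gene Eef2k did not pass in either step (-0.14 ± 0.08 and -0.12 ± 0.09).

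Eef1a1 was at 6888 and 6989 CPM without GM-CSF, 5896 and 5779 with it, and 5886 and 5609 with DON. It fell with GM-CSF by 0.25 ± 0.03 on the log2 scale (adjusted p = 0.000156 in edgeR), and by 0.13 under total counts alone. The DON and GM-CSF libraries overlapped (-0.02 ± 0.03). The genes of its exchange complex did not follow it. Eef1g was at 329.9 and 346, 478 and 469, and 289 and 286 CPM, with 0.49 ± 0.04 and -0.72 ± 0.04 (adjusted p = 4.31e-06 and 4.9e-07). Eef1b2, the exchange subunit, showed 0.17 ± 0.05, lost without the first GM-CSF library (adjusted p = 0.0693), and -0.32 ± 0.05, and Eef1d, another exchange subunit, 0.37 ± 0.05 and 0.01 ± 0.05. Of the 50-base stretches of Eef1a1 60.6% and of Eef1g 64.3% recur in other genes, so both levels carry uncertain reads.

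Eef1a2, the eEF1A form of muscle and neurons, is the thinnest member, and it held 5 and 1 counts without GM-CSF, 87 and 82 with it, and 1 and 10 with DON. These were 0.154 and 0.0297 CPM, 2.55 and 2.75 CPM, and 0.035 and 0.307 CPM. With GM-CSF it stood 29.2 times higher from 169 against 6 counts (95% Clopper-Pearson interval 13.1 to 80.7, counting error only), a description with no test, since the GM-CSF libraries are what brought it into the set. With DON it was 14.7 times lower than with GM-CSF, from 11 counts (8.02 to 30). Even at its highest it was 1.51 and 1.46 FPKM, against a mean of 4093 FPKM for Eef1a1 in the same libraries. Eef1e1, an accessory subunit of the aminoacyl-tRNA synthetase complex, was at 18.8 and 20.6, 29.6 and 27.5, and 19.1 and 18.8 CPM (0.53 ± 0.07 and -0.59 ± 0.07).

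**Figure D4:**
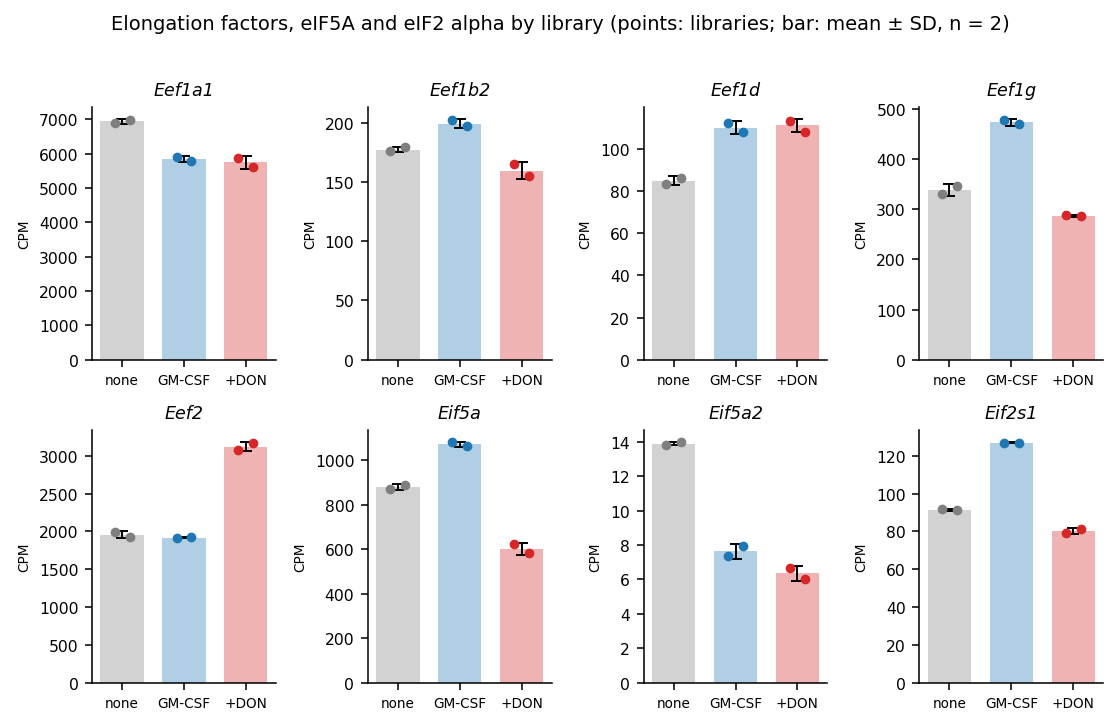
CPM (y axis, from 0) of elongation factor genes, the eIF5A genes and Eif2s1 in each library (none: no agent, GM-CSF: that agent alone, +DON: both agents). Points are libraries, bars means and whiskers ± SD (n = 2). Eef2 is highest with DON (3078 and 3167 CPM), while Eef1g, Eif5a and Eif2s1 are highest with GM-CSF alone.

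The 4 Argonaute genes, whose products carry microRNAs, had 3 that fell and none that rose with GM-CSF, where 29.3% of all genes fell. Among the other 56 members 6 fell. Eif2c4 (Ago4) was at 23.2 and 21.5 CPM without GM-CSF, 11.7 and 12.7 with it, and 11.1 and 12.8 with DON, with a log2 fold change of -0.88 ± 0.09 with GM-CSF (adjusted p = 2.08e-05 in edgeR). Eif2c1 (Ago1) was at 62.1 and 59.8, 43.6 and 42.2, and 53.7 and 54.4 CPM, with -0.51 ± 0.05 and then 0.33 ± 0.05.

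Eif2c3 (Ago3) was at 31.5 and 23.1, 17.3 and 17.6, and 15.2 and 20 CPM. It fell by 0.65 ± 0.15 with GM-CSF, and by 0.41 without the first library lacking GM-CSF. Eif2c2 (Ago2), the one with slicing activity, was at 186 and 141, 132 and 139, and 163 and 197 CPM. Its change with GM-CSF, -0.27 ± 0.12, passed only without the second library lacking GM-CSF (-0.46) or with upper quartile scaling (-0.30). Its rise with DON, 0.41 ± 0.12 (adjusted p = 0.0134 in edgeR), was lost without either GM-CSF library (adjusted p = 0.0966 and 0.0551) and without the second DON library (0.27, adjusted p = 0.142).

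Against no GM-CSF, the cells with both GM-CSF and DON had 1 eIF4F gene higher and 6 lower of 10, where 27.2% of all genes were higher and 28.4% lower. Of the 13 eIF3 genes 7 were higher and 1 lower, and of the 5 eIF2B genes 3 were higher and none lower. Among these calls, Eif4h (-0.13 ± 0.04) was lost by total counts, with upper quartile scaling, without either library lacking GM-CSF and without the second DON library (adjusted p up to 0.567 in edgeR). Eif3b (-0.15 ± 0.05) was lost under the same scalings and without the second library of either group (adjusted p up to 0.337), and Eif2b4 (0.30 ± 0.08) without the first DON library and with DESeq2 (adjusted p up to 0.0825). Beside Eif4ebp1 at 1.21, the largest called log2 differences upward were 0.79 ± 0.04 for Eif2s2, 0.68 ± 0.04 for Eif3c, 0.67 ± 0.04 for Eef2 and 0.61 ± 0.04 for Eif1. Downward they were -1.13 ± 0.10 for Eif5a2, -1.12 ± 0.08 for Eif4g3, -0.90 ± 0.09 for Eif2c4, -0.63 ± 0.15 for Eif2c3, -0.55 ± 0.04 for Eif5a and -0.50 ± 0.05 for Eif4ebp2. That of Eif2c3 was -0.39 without the first library lacking GM-CSF and did not pass without the first DON library (-0.45, adjusted p = 0.0592).

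Genes that act on these factors were followed in lists of non-members, whose counts are to be read against the 56.8% of all genes that changed with GM-CSF (27.5% up, 29.3% down) and the 57.6% that changed with DON (28.8% each way). Among 12 genes of the eIF2 kinases, their phosphatase and ATF4, 3 rose and 5 fell with GM-CSF, and 4 rose and 3 fell with DON, which is 66.7% and 58.3% called. Atf4 was at 198 and 217 CPM without GM-CSF, 303 and 319.8 with it, and 588 and 537 with DON. It rose at both steps, by 0.59 ± 0.06 and 0.85 ± 0.06 (adjusted p = 1.72e-05 and 1.59e-06 in edgeR). Ppp1r15a, which encodes the inducible subunit that brings phosphatase to eIF2 alpha, was at 23.5 and 23.1, 11.6 and 14.6, and 46.0 and 45.3 CPM. GM-CSF alone was lowest, and the rise with DON was 1.80 ± 0.09 or 3.49-fold.

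The kinase genes moved less. Eif2ak2 (PKR) was at 26.5 and 26.2, 28.0 and 30.3, and 18.2 and 20.1 CPM, and its log2 fold change with DON was -0.60 ± 0.07 (adjusted p = 7.32e-05 in edgeR). Eif2ak3 (PERK) and Eif2ak4 (GCN2) passed in none of the 3 comparisons. Eif2ak3 was between 33.1 and 36.0 CPM and Eif2ak4 between 28.8 and 31.9 CPM in every library. By total counts alone Eif2ak4 passed with GM-CSF at 0.23 (adjusted p = 0.00654 in edgeR). Impact, a GCN2 inhibitor gene, was at 108 in both libraries without GM-CSF, 86.3 and 83.9 with it, and 144 and 145 with DON (-0.34 ± 0.04 and 0.77 ± 0.04).

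Of 17 genes of mTORC1 and its brakes, 3 rose and 6 fell with GM-CSF, and 9 rose and 3 fell with DON, which is 52.9% and 70.6% called. Their log2 fold changes ran from -2.2 (Gatsl3) to 0.85 (Ddit4) with GM-CSF, and from -0.43 (Larp1) to 1.69 (Sesn2) with DON. Sesn2, a leucine-sensing brake that ATF4 is known to induce, was at 23.7 and 26.7 CPM without GM-CSF, 34.3 and 39.0 with it, and 119 and 117 with DON. Its rise with DON was 1.69 ± 0.07 or 3.22-fold (adjusted p = 9.43e-08 in edgeR). Sesn1, its relative, was at 12.7 and 12.4, 5.4 and 5.88, and 5.45 and 6.6 CPM, falling with GM-CSF by 1.16 ± 0.11 and not passing with DON (0.10 ± 0.12). Rps6kb1, the gene of S6K1, rose by 0.70 ± 0.05 and 0.22 ± 0.05. Larp1, which represses mRNAs with an oligopyrimidine tract, showed 0.23 ± 0.04 and -0.43 ± 0.04.

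Of 13 regulators of eIF4F and the poly(A)-binding protein, 3 rose and 7 fell with GM-CSF, and 8 rose and 3 fell with DON, which is 76.9% and 84.6% called. Pdcd4, an eIF4A inhibitor gene, was at 8.36 and 8.23 CPM, 2.46 and 2.62, and 7.34 and 7.89, lowest with GM-CSF alone. Its log2 fold changes were -1.71 ± 0.12 and 1.59 ± 0.12 (adjusted p = 1.42e-06 and 3.6e-06 in edgeR). Gigyf1, a partner of Eif4e2 in translational repression, showed -0.48 ± 0.06 and 0.90 ± 0.06. Dhx29, a helicase that aids scanning through structured leaders, rose with GM-CSF from 36.6 and 37.5 to 63.2 and 64.1 CPM (0.78 ± 0.06) and was at 44.8 and 48.3 CPM with DON (-0.45 ± 0.06). Pabpc4, a poly(A)-binding protein gene, rose at both steps (0.52 ± 0.04 and 0.26 ± 0.04), and the helicase gene Ddx3x fell at both (-0.32 ± 0.05 and -0.29 ± 0.05). Paip2, which displaces poly(A)-binding protein, showed -0.33 ± 0.06 and 0.84 ± 0.06. Mknk2, an eIF4E kinase gene, was at 369.6 and 379, 225 and 224, and 265 and 268 CPM (-0.74 ± 0.04 and 0.25 ± 0.04).

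At the far end of the cycle, 7 of 9 tested genes of release, recycling and reinitiation rose and 1 fell with GM-CSF, and none rose and 6 fell with DON. The 77.8% that rose and the 66.7% that fell stand beside 27.5% and 28.8% of all genes. Gspt1, the release factor eRF3, was at 179 and 178 CPM without GM-CSF, 229 and 221 with it, and 137 and 135 with DON (0.33 ± 0.04 and -0.73 ± 0.04). Abce1, which splits ribosomes after release, showed 0.42 ± 0.05 and -0.72 ± 0.05, and Etf1, the release factor eRF1, 0.25 ± 0.04 and -0.48 ± 0.04. Of 8 genes for the modification of eIF5A and eEF2, 4 rose and 1 fell with GM-CSF, and 1 rose and 1 fell with DON, which is 62.5% and 25% called. The hypusine enzyme genes split with DON: Dhps rose by 0.44 ± 0.07 and Dohh fell by 0.28 ± 0.06. Of 9 mitochondrial translation factors with a full gene name, 5 rose and none fell with GM-CSF, and 3 rose and 2 fell with DON. In each step 55.6% were called, near the share of all genes. The list had 11 entries, of which 2 under provisional symbols were left out, a choice made after seeing the data. Over the 11, 45.5% were called in each step, below the share of all genes. The mitochondrial elongation factor genes Gfm1 and Tufm rose with GM-CSF (0.53 ± 0.05 and 0.34 ± 0.05) and fell with DON (-0.46 ± 0.05 and -0.28 ± 0.05). Mrrf, for mitochondrial ribosome recycling, did not pass with GM-CSF (0.11 ± 0.08) and rose with DON by 0.50 ± 0.07. By total counts alone Mrrf passed with GM-CSF at 0.23 (adjusted p = 0.0259 in edgeR).

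**Figure D5:**
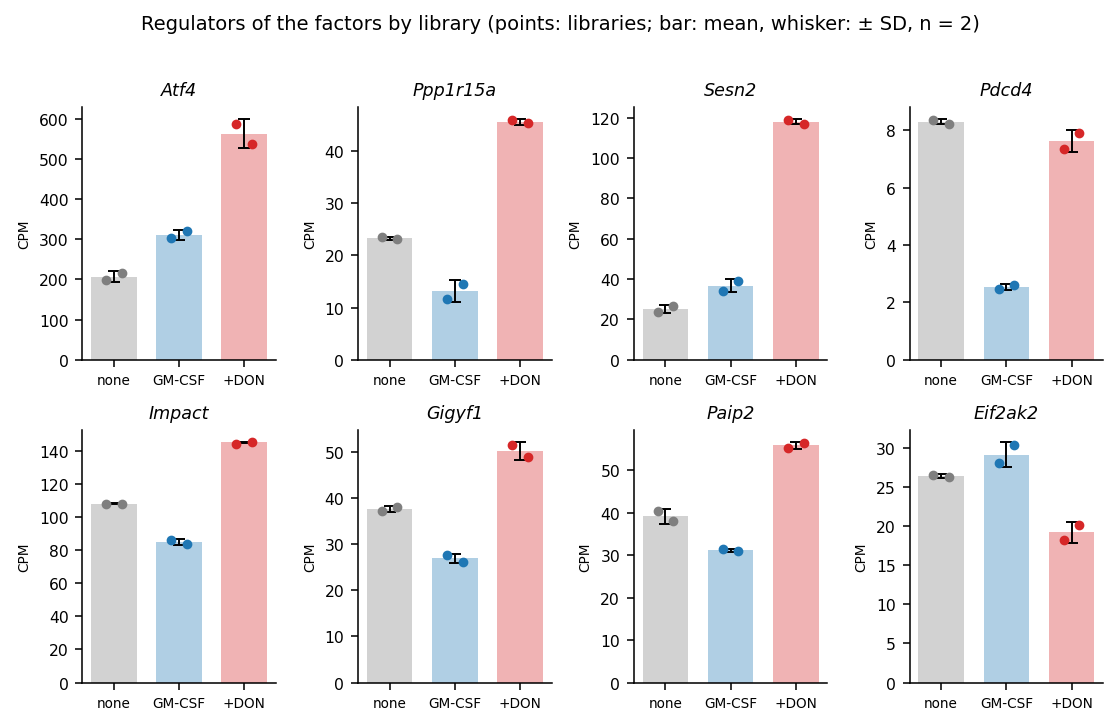
CPM (y axis, from 0) of 8 genes that act on the translation factors in each library (none: no agent, GM-CSF: that agent alone, +DON: both agents). Points are libraries, bars means and whiskers ± SD (n = 2). Atf4 and Sesn2 are highest with DON, and Ppp1r15a, Pdcd4, Impact, Gigyf1 and Paip2 are lowest with GM-CSF alone.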

How the data were processed

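RNA-seq counts for 16840 gene symbols in 6 libraries were deposited by the authors as whole numbers, with a second deposited table of the authors' FPKM. Per the submitters' processing notes, the tools were DESeq2 1.28.1, featureCounts, Subread 1.4.6 and STAR 2.6.0a, on the build mm10 (GRCm38); for the annotation and strand setting the sources used here give nothing. All columns had a sample. The gene length implied by counts and FPKM varied by over 5% (SD over libraries) for 8 of 59 members with at least 1000 counts, so FPKM served only for levels between genes.

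Counts were filtered with filterByExpr (minimum count 10), which left 12340 genes, and scaled by TMM. All 6 libraries entered one fit, with 1 coefficient for each group, in edgeR 4.0.16 in R 4.3.3 (3 residual and 6.74 prior degrees of freedom; biological coefficient of variation 0.0501). Contrasts were two-sided. Benjamini-Hochberg adjustment ran over the 12340 genes, and calls were made at an adjusted p under 0.05. The fit was also run on simulated counts in which few genes changed, evenly up and down, with a single spread for all. It recovered 92% of changes of 0.5 and 100% of changes of 1 on the log2 scale. Far more genes changed in these data, so the simulation does not test the scaling here. CPM values use TMM-scaled totals. Alternatives were other scalings, no filter, a replicate block, only the groups compared, leaving out each library, DESeq2 1.42.0, and adding the counts of Eif4a-ps4 to Eif4a1. Replicates differed by a chi-square per degree of freedom of 8.90, 5.54 and 4.67 in the 3 groups, and none were copies.

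Members and lists were chosen with earlier results of these data known. Library values are given for Eif4ebp1, for the 6 largest called rises and falls of each comparison among members with a mean of at least 10 CPM, and for paralog sets whatever they did. Members outside that rule (Eif4h, Eif3b and Eif6, for example) are given by their fold change alone and were chosen after their values were seen. The regulators followed were up to 3 with the smallest adjusted p per list and comparison and set ones such as Atf4. Not all of these are described. Some have a fold change alone in the text (Rps6kb1 and Larp1, for example). Others are left out (Deptor, Mlst8, Nck1 and Ppp1cc, for example), and no rule fixed which. Shared 50-base stretches were counted between transcripts of GENCODE M21. For 16 members at least 10% of the stretches were shared. Beside those named above these include Eif3m (40.0%), Eif2s3x (36.2%), Eif1 (31.6%) and Eif3h (26.2%), whose reads are uncertain as well. The summed level of lymphocyte markers is not reported here.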

Additional observations from a re-analysis of the deposited data

How the results depend on the processing

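Counts of members in this section include Eef1a2. Counts of members called kept within 1.5 times under every alternative, with 1 exception. By total counts without a scaling factor, 15 members and not 23 were lower with GM-CSF and DON than without GM-CSF. Under that scaling Eef2 with GM-CSF, at -0.03 and not called otherwise, was at 0.09 (adjusted p = 0.0456 in edgeR), the one named member to be called with the sign turned; differences near 0 that were not called also changed sign, such as Eif1a and Eif3f with GM-CSF. Leaving out one library at a time gave 28 to 32 higher and 9 to 11 lower with GM-CSF, 11 to 14 and 21 to 26 with DON, and 18 to 21 and 17 to 23 in the third comparison. Scaling by total counts moved the median of all genes to 0.10 with GM-CSF and 0.11 in the third comparison, and the share of calls that were higher from 48.4% to 63.0% and from 48.9% to 61.6%. Upper quartile scaling moved the members' share with DON from 35.9% to 45%, and that of all genes from 50% to 59%. Calls held in every alternative for 34 of 41, 32 of 39 and 32 of 43 members in the 3 comparisons. Of 1511 alternative values for named members, 23 lost and 25 gained a call. The differences between same-group replicates correlated at -0.0482, -0.314 and 0.07 from group to group. With 1 such difference a group, these values cannot settle whether libraries share a culture, mouse or preparation. With a replicate block the members' counts were 32 and 9, 14 and 25, and 20 and 23, as without it. With 2 libraries a group, a left-out library leaves a lone sample that is assumed to vary like the other groups. Depth limits Eef1a2 most: its 11 and 6 counts with DON and without GM-CSF allow a ratio of 0.673 to 6.53.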
